A study of Drosophila melanogaster with 3 samples.

Results

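The translation initiation and elongation factor genes of Drosophila melanogaster were examined in a map of the clockwork orange protein (cwo) on embryo chromatin. They were chosen by symbol, as the protein-coding genes of the dm6 annotation whose symbol begins with eIF or eEF, and the rule found 52 genes among 13945 protein-coding genes. The map came from chromatin immunoprecipitation followed by sequencing (ChIP-seq), in which fragments bound by a protein are pulled down and their place in the genome is read. Chromatin came from intact embryos of both sexes, 6 to 24 h old, of a transgenic line that stably expresses cwo fused to GFP at its C-terminus. It was sheared by sonication to sizes given as 200 to 800, and an antibody against GFP was used for the precipitation. The 3 samples were biological replicates of this single group, so every library carried the transgene and no second condition was compared. The sources used here do not give the promoter that drives the fusion or the state of the untagged cwo gene. Because whole embryos were used, the cell types in which a site was occupied could not be told apart.

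Translation begins when the initiator tRNA, carried by eIF2, joins the small ribosomal subunit together with eIF1, eIF1A, eIF3 and eIF5, while the eIF4 proteins bind the mRNA cap and unwind the leader. The large subunit joins with the help of eIF5B, after which eEF1 delivers each aminoacyl-tRNA and eEF2 moves the ribosome on. cwo is a transcriptional repressor of the bHLH-Orange family, known from the circadian clock of the fly. Proteins of this family bind E-boxes such as CACGTG and related class C sites such as CACGCG. Messenger RNA was not analysed here, so the values below describe occupancy near genes and not the output of those genes.

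A gene was called bound when a summit, the highest point of a region on the optimal irreproducible discovery rate (IDR) list, lay within 1000 bp of any of its transcription start sites (TSSs). That list held 7366 regions, which were the strongest of the 30000 regions listed for the pooled replicates. The pooled list is labelled as peaks and background given to IDR, so its regions outside the optimal list may be background. A pooled summit alone was therefore not counted as binding. Each region carries a signal value in the authors' list, whose scale is not given, so it served only to rank regions within a list, with rank 1 the strongest. The 3 replicate lists held 30000 regions each, with median signals of 33.0, 44.2 and 65.2 in replicates 1, 2 and 3, and read depth is unknown. The cwo gene itself had a promoter summit at rank 24, and at ranks 19, 28 and 23 in replicates 1, 2 and 3.

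Of the 52 translation factor genes, 30 had a pooled summit at a promoter, and 17 of these were bound. The bound share was thus 56.7% (95% Wilson interval 39.2 to 72.6%), against 49.4% of the 7149 protein-coding genes with a pooled promoter summit. Against all genes, whether or not they had a pooled summit, 32.7% of the translation factor genes (interval 21.5 to 46.2%) and 25.3% of protein-coding genes were bound. A pooled promoter summit was present at 57.7% of the translation factor genes (interval 44.2 to 70.1%) and at 51.3% of all protein-coding genes. All 3 background shares lay inside the intervals, which cover counting error over genes only. Bound translation factor genes were therefore about as frequent as bound genes in general.

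The sequences below show bound promoters with an E-box, a class C site or a DNA replication-related element within 100 bp of the strongest summit. E-boxes and class C sites are shown because they are the known targets of the cwo family. They are read 5′ to 3′ on the strand of the gene from the dm6 reference, in lower case with the motif in capitals. The only CACGTG within 100 bp of a strongest summit was in eIF4A, which encodes the DEAD-box helicase that unwinds the mRNA leader, downstream of the TSS, in the stretch chr2L:5981787-5981816 on the plus strand:
eIF4A: aatcagtagcagCACGTGtataaaaagtgc
CACGCG, or its reverse complement CGCGTG, lay within that distance in eIF4A as well, and in eIF3h, eIF2D and eIF4H1, shown at chr2L:5052541-5052606 on the minus strand, chr3R:29151956-29152021 on the minus strand and chrX:16448886-16448951 on the plus strand:
eIF3h: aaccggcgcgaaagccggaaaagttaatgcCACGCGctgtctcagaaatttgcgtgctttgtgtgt
eIF2D: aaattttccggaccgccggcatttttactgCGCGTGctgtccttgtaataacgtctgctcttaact
eIF4H1: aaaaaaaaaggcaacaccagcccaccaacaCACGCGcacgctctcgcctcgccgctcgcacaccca

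The DNA replication-related element TATCGATA is the binding sequence of the factor DREF. It was found within 100 bp of the strongest summit at 5 of the 17 bound genes (29.4%), against 4.75% of all bound genes. CACGTG was within that distance at 1 of the 17 (5.88%), against 14.3% of all bound genes. Within 200 bp CACGTG was at 5 of the 17 as well, against 18.5% of all bound genes. TATCGATA at eIF1 stood by a summit nearer to a TSS of the neighbouring gene RpL28 than to that of eIF1. Besides eIF6, for which no sequence is printed, the 100 bp window held it at eEF1gamma, eIF1, eIF3a and eIF2A, shown at chr3R:29220101-29220168 on the plus strand, chr3L:3223015-3223082 on the plus strand, chr3R:4433896-4433963 on the minus strand and chr3L:21824865-21824894 on the plus strand:
eEF1gamma: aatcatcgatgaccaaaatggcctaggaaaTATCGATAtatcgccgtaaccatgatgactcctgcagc
eIF1: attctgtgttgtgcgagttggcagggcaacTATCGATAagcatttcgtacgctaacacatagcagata
eIF3a: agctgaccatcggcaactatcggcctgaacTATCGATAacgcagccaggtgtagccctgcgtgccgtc
eIF2A: ttactatcgctTATCGATAcaccgcgtaca
For contrast, the summit of second highest signal among these genes, at eIF4EHP, had none of the listed motifs within 100 bp, and is shown at chr3R:24109122-24109202 on the minus strand with the summit base in capitals:
eIF4EHP: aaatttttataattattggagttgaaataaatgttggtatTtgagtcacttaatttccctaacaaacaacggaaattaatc

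The genes of every role included bound and unbound members, apart from the single gene of the subunit anti-association role, eIF6, which was bound. Among the 4 genes for start codon selection and subunit joining, 2 were bound and 2 had a pooled summit only. Of the 10 genes for initiator tRNA delivery and its exchange factor, 3 were bound, 4 had a pooled summit only and 3 had none. The 16 genes for subunits of eIF3, the large scaffold on the small ribosomal subunit, had 3 bound, 2 with a pooled summit only and 11 with none. In the cap binding, scaffold and helicase role, 4 of 13 genes were bound, 3 had a pooled summit only and 6 had none. Of the 8 elongation factor genes, 4 were bound, 2 had a pooled summit only and 2 had none. Of all protein-coding genes, 25.3% were bound and 51.3% had a pooled promoter summit. The groups are small, and their differences from each other and from those shares were not tested.

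**Figure D1:**
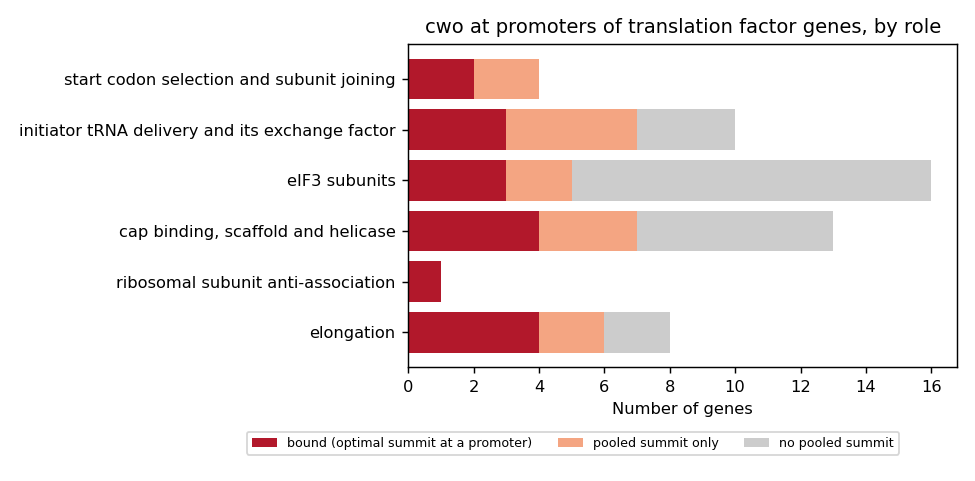
Number of translation factor genes in each role (horizontal axis, genes), split into bound genes, those with a pooled summit only and those without any. Of the 16 eIF3 subunit genes, 11 had no pooled promoter summit, whereas 51.3% of all protein-coding genes had one. The difference was not tested.

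Both bound genes of the start codon role had summits of middle or low rank. eIF1 (FBgn0035423), which helps the scanning ribosome reject wrong start codons, had its summit at chr3L:3223017, 324 bp upstream of the TSS, with a signal of 599 and rank 2274. It ranked 1667, 1834 and 2968 in replicates 1, 2 and 3, a mean of 2156 ± 708 (SD, n = 3). This summit lay 57 bp from a TSS of the neighbouring ribosomal protein gene RpL28, nearer than to eIF1. A second summit 118 bp upstream of the eIF1 TSS ranked 5871. eIF5B (FBgn0026259), the GTPase that joins the subunits, had its summit at chr3L:3460804 in the 5′ UTR, 173 bp downstream of the TSS, with a signal of 337 and rank 5027. Its ranks of 3191, 4057 and 7552 averaged 4933 ± 2309 (SD, n = 3), so replicate 3 placed it below the strongest 7366 regions. Of the unbound pair, eIF5, which activates GTP hydrolysis by eIF2, had a pooled summit at rank 13585, and eIF1A, the scanning partner of eIF1, at rank 21941.

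Of the genes for initiator tRNA delivery, eIF2Bbeta had the highest signal of all 17 bound translation factor genes. eIF2Bbeta (FBgn0024996), a subunit of the factor that reloads eIF2 with GTP, had its summit at chrX:2703890 with a signal of 6778 and rank 21. It ranked 16, 25 and 24 in replicates 1, 2 and 3, a mean of 21.7 ± 4.93 (SD, n = 3), and so stood among the strongest regions of every list. That summit was 681 bp upstream of the eIF2Bbeta TSS, the greatest distance in the set, and 38 bp from a TSS of Ugalt, a UDP-galactose transporter gene. No CACGTG lay nearer to it than 1149 bp. eIF2D (FBgn0041588), a non-canonical tRNA-binding factor, had its summit at chr3R:29151937, 143 bp upstream, with a signal of 300.4 and rank 5809. Its replicate ranks were 3236, 8697 and 6819, a mean of 6251 ± 2775 (SD, n = 3), and replicate 2 placed it outside its strongest 7366. eIF2A, which in mammals can bring initiator tRNA without eIF2, ranked 5375, with replicate ranks of 3822, 29901 and 6490, so replicate 2 held its summit only near the end of its list.

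The other subunits of eIF2 and eIF2B were unbound. eIF2Bepsilon, the catalytic subunit of the exchange factor, ranked 8270 in the pooled list, and 19372, 15499 and 5730 in the replicates. eIF2Bgamma ranked 8470, and 6683, 14993 and 8933 in the replicates. Each had a promoter summit among the strongest 7366 regions of a single replicate, replicate 3 for eIF2Bepsilon and replicate 1 for eIF2Bgamma. eIF2beta ranked 12270 and eIF2Bdelta 12835, while eIF2alpha, eIF2gamma and eIF2Balpha had no pooled promoter summit.

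Among the eIF3 subunit genes, eIF3h, eIF3c and eIF3a were bound. eIF3h (FBgn0022023) had its summit at chr2L:5052507 in an intron, 273 bp downstream of the TSS, with a signal of 785 and rank 1540. Its ranks of 1042, 1522 and 2088 averaged 1551 ± 524 (SD, n = 3). A second summit, 18 bp downstream of the TSS in the 5′ UTR, ranked 3094. eIF3c (FBgn0034258), a core subunit, had its summit at chr2R:17665643, 35 bp upstream, with a signal of 441, rank 3493 and replicate ranks of 3610, 4912 and 3316 (mean 3946 ± 849, SD, n = 3). The largest core subunit, eIF3a (FBgn0037249), had its summit at chr3R:4433917, 22 bp upstream, with a signal of 330 and rank 5165. Replicates 1, 2 and 3 ranked it 4017, 6520 and 6772, a mean of 5770 ± 1523 (SD, n = 3). All replicates thus held these 3 summits among their strongest 7366 regions. eIF3m, at rank 8160, had the strongest pooled summit of any unbound translation factor gene, and a separate promoter summit of replicate 1, 229 bp from a TSS of eIF3m, ranked 5860 there. eIF3b ranked 13433. The others, eIF3d1, eIF3d2, eIF3e, eIF3f1, eIF3f2, eIF3g1, eIF3g2, eIF3i, eIF3j, eIF3k and eIF3l, had no pooled promoter summit.

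Among the cap binding, scaffold and helicase genes, eIF4EHP and eIF4A were bound at high rank. eIF4EHP (FBgn0053100), a cap-binding protein that represses chosen mRNAs in the fly embryo by taking the place of eIF4E, had its summit at chr3R:24109162 with a signal of 2676 and rank 167. Its replicate ranks of 203, 183 and 157 averaged 181 ± 23.1 (SD, n = 3), a narrow spread. The summit lay 202 bp upstream of the eIF4EHP TSS and 174 bp from a TSS of CG18428, in DNA with a GC content of 21.9%, the lowest among the bound translation factor genes. eIF4A (FBgn0001942) had its summit at chr2L:5981841, 77 bp downstream of the TSS, with a signal of 1138 and rank 827. It ranked 834, 1060 and 695 in the replicates, a mean of 863 ± 184 (SD, n = 3), and both CACGTG and CACGCG lay within 100 bp. A weaker eIF4A summit 291 bp downstream of the TSS ranked 7191.

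The other 2 bound genes of this role stood near the end of the optimal list. eIF4E1 (FBgn0015218), the main cap-binding protein, had its summit at chr3L:9402119 in the 5′ UTR, 18 bp downstream of a TSS, at rank 6402 with a signal of 278. Its ranks of 14073, 6713 and 5519 averaged 8768 ± 4633 (SD, n = 3), with replicate 1 far below the other two. eIF4H1 (FBgn0262734), named as a helicase cofactor, had its summit at chrX:16448916, 236 bp upstream of its nearest TSS, with a signal of 257 and rank 7034, the weakest bound summit in the set. No region of replicate 1 covered it, and it ranked 3997 and 8605 in replicates 2 and 3. eIF4G2 ranked 19387, and the eIF4E paralogs eIF4E4 and eIF4E3 ranked 28732 and 29588, the first of these in no replicate list. eIF4B, eIF4E5, eIF4E6, eIF4E7, eIF4G1 and eIF4H2 had no pooled promoter summit. Around eIF4B the pooled list was empty over a long stretch, with the nearest pooled summit 3505387 bp from its TSS. eIF4G1, the main scaffold between cap and ribosome, lies on chromosome 4, with the nearest pooled summit 52264 bp from its TSS.

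eIF6 (FBgn0034915), which takes part in large subunit maturation and keeps the subunits apart, had its summit at chr2R:23850401, 100 bp upstream of the TSS, with a signal of 2411 and rank 204. Replicates 1, 2 and 3 ranked it 138, 198 and 291, a mean of 209 ± 77.1 (SD, n = 3). The neighbouring gene ytr also had a TSS within 1000 bp, and TATCGATA lay within 100 bp of the summit. It had the third highest signal among the translation factor genes.

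The 4 bound elongation factor genes had summits within 45 bp of a TSS. eEF1gamma (FBgn0029176), a subunit of the exchange complex for eEF1alpha, had its summit at chr3R:29220133, 39 bp upstream, with a signal of 743, rank 1672 and the centre of TATCGATA 1 bp away. Its ranks of 915, 1325 and 2743 averaged 1661 ± 959 (SD, n = 3). eEF2 (FBgn0000559), the translocase, had its summit at chr2L:21682071 in the 5′ UTR, 45 bp downstream, with a signal of 483 and rank 3105. Its ranks were 2490, 3394 and 3909, a mean of 3264 ± 718 (SD, n = 3). eEF5 (FBgn0285952), formerly named eIF5A, helps ribosomes through difficult peptide bonds. Its summit, at chr2R:24057817 in the 5′ UTR, was 19 bp downstream, with a signal of 388, rank 4172 and replicate ranks of 3613, 4903 and 5391 (mean 4636 ± 919, SD, n = 3). Thus eEF1gamma, eEF2 and eEF5 were in the strongest 7366 regions of every replicate.

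eEF1alpha1, the factor that delivers aminoacyl-tRNA, ranked 5537 with a summit 14 bp upstream of 1 of its 4 TSSs, the shortest distance in the set. Its ranks of 3298, 7774 and 7599 show that only replicate 1 held it among its strongest 7366 regions. Its further promoter summits ranked 6202 and 6354. eEF1beta, another exchange subunit, had a pooled summit at rank 25044, and eEFSec, which delivers selenocysteine, at rank 25483. eEF1delta and eEF1alpha2 had none, the nearest optimal summit to eEF1alpha2 being 1263 bp from its TSS.

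**Figure D2:**
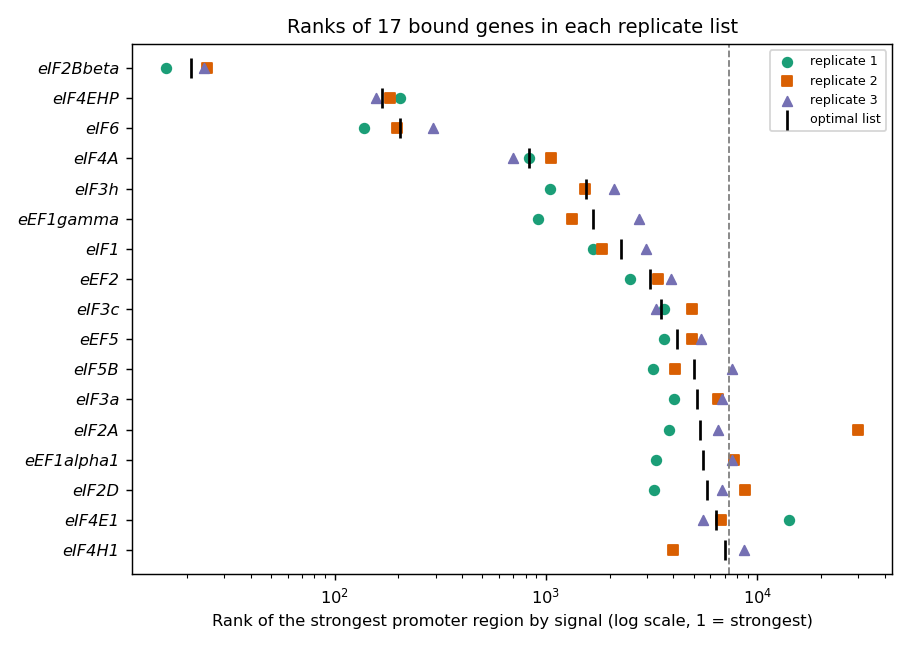
Rank of the strongest promoter summit of each bound translation factor gene in the optimal list and in replicates 1, 2 and 3 (log scale, rank 1 strongest), with a dashed line at rank 7366. Replicate ranks of eIF2Bbeta lie between 16 and 25, whereas those of eIF2A lie between 3822 and 29901.

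Every replicate held the strongest promoter summits, while some of the weak ones were held by fewer. The optimal list was made from these same replicates, so this follows in part from how the list was made. The strongest promoter summit lay inside the strongest 7366 regions of all 3 replicates for 11 of the 17 bound genes (64.7%, interval 41.3 to 82.7%), against 78.5% of all 3535 bound genes. Of the remaining 6, eIF5B, eIF2A, eIF2D and eIF4E1 were held by 2 replicates, and eEF1alpha1 and eIF4H1 by 1. With the same rule applied to the strongest 7366 regions of each replicate alone, 17, 15 and 16 translation factor genes were bound in replicates 1, 2 and 3, a mean of 16 ± 1 (SD, n = 3). In each replicate, 15 of the 17 were among them, the others being eIF2Bgamma and eIF3m in replicate 1 and eIF2Bepsilon in replicate 3. As shares of genes with a summit in the replicate's own list these were 58.6%, 46.9% and 50%, against 46.9%, 48.5% and 48.6% of all protein-coding genes. The difference was 11.7, -1.58 and 1.36 percentage points, a mean of 3.83 ± 6.99 (SD, n = 3), which is smaller than its spread and changed sign between replicates.

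Ranks also differed between replicates in direction. Of the 16 bound genes ranked in all 3 replicates, 12 (75%) ranked best in replicate 1, none in replicate 2 and 4 (25%) in replicate 3. Among all 3445 bound genes ranked in all replicates, 38.5% ranked best in replicate 1, 27.3% in replicate 2 and 34.5% in replicate 3, with ties counted in each. Among the 832 of those with a summit within 100 bp of a TSS, 44.6%, 26.6% and 29% did so. Replicate 1 also had the lowest median signal, and its part in this pattern was not tested.

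Summits at bound translation factor genes lay near the TSS. The distance had a median of 77 bp and ranged from 14 bp at eEF1alpha1 to 681 bp at eIF2Bbeta, against a median of 201 bp over all bound genes (interquartile range 103 to 436). A summit within 100 bp of a TSS was found at 10 of the 17 (58.8%, interval 36.0 to 78.4%) and at 24% of all bound genes, a share below that interval. Bound translation factor genes had a median of 2 distinct TSSs per gene, and all bound genes a median of 1. The part of the TSS number in the result was not tested. The summit was upstream of the nearest TSS at 64.7% of these genes and at 75.5% of all bound genes. It lay in the 5′ UTR at 5 (29.4% against 14.9%), in an intron at 4 (23.5% against 22.4%) and outside the gene at 8 (47.1% against 60.9%). For the 5′ UTR the interval was 13.3 to 53.1%, and the share over all bound genes lay inside it.

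**Figure D3:**
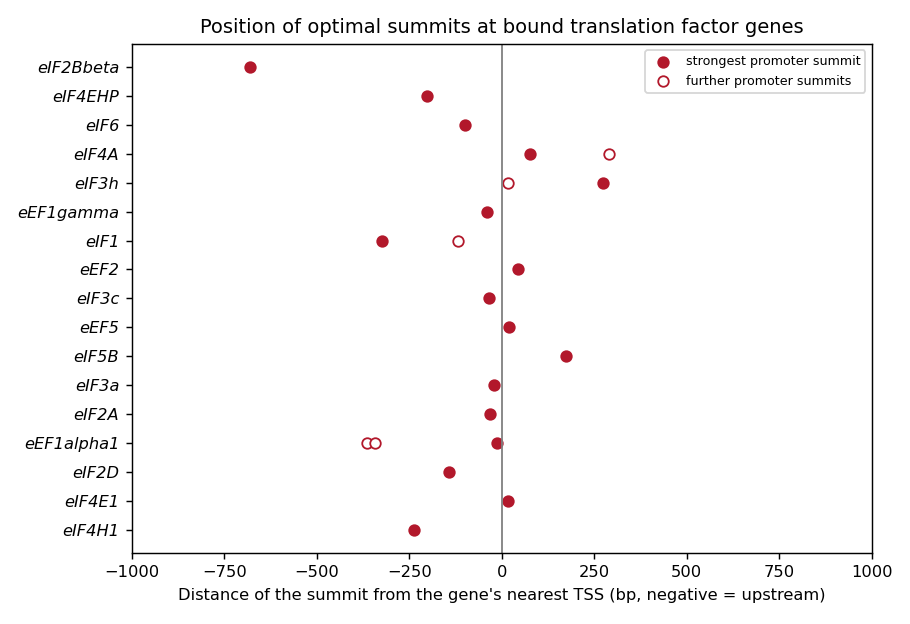
Distance of the strongest promoter summit from the nearest TSS (bp, negative upstream) for each bound translation factor gene, filled, with further promoter summits as open points. Most strongest summits, 10 of 17, lie within 100 bp of a TSS, and that of eIF2Bbeta lies 681 bp upstream.

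Promoters shared with a neighbour were about as frequent as among all bound genes. Another protein-coding gene had a TSS within 1000 bp of the summit at 11 of the 17 genes (64.7%, interval 41.3 to 82.7%). The share over all bound genes, 51.1%, lay inside that interval. At eIF2Bbeta, eIF4EHP and eIF1 the summit was nearer the other gene, Ugalt, CG18428 and RpL28 in that order, which is 17.6% of the set against 25% of all bound genes. The pair with the highest signals is among them, so the gene to which those summits belong cannot be told apart from position alone. By contrast, eEF1gamma, eEF2, eIF2A, eEF1alpha1, eIF2D and eIF4E1 had no other gene's TSS within 1000 bp.

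Motifs were searched on both strands, each counted on its own even where matches overlapped. CACGTG lay within 100 bp of the strongest summit at 1 of the 17 bound genes (5.88%, interval 1.05 to 27.0%), against 14.3% of all bound genes. That all-gene share lay inside the interval. Within 200 bp it was present at 5 of the 17, namely eIF4A, eEF2, eIF2A, eIF6 and eIF1, against 18.5% of all bound genes. The direction of the comparison thus changed with the window, from below the all-gene share at 100 bp to above it at 200 bp. CACGCG was present within 100 bp at eIF3h, eIF2D, eIF4H1 and eIF4A (23.5%, interval 9.56 to 47.3%), against 7.86% of all bound genes, a share below that interval. For summits within 100 bp of a TSS it was at 1 of 10 translation factor genes, against 9.68% of all 847 such genes. For farther summits it was at 3 of 7, against 7.29% of 2688 genes. The motifs were chosen with earlier results of these data known, so an interval that misses an all-gene share does not set these genes apart. CACGTT, an E-box variant, was found at 1, eEF5, against 9.7%, and GAGAGA, the repeat bound by GAGA factor, at 1, eIF4E1, against 10%.

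TATCGATA stood within 100 bp of the strongest summit at eEF1gamma, eIF1, eIF2A, eIF3a and eIF6 (29.4%, interval 13.3 to 53.1%), against 4.75% of all bound genes, which is below that interval. Distance to the TSS moves with this share. Where the summit was within 100 bp of a TSS, 4 of 10 translation factor genes had the element, against 10.2% of all 847 such genes. Where it was farther from the TSSs of the gene itself, 1 of 7 did, against 3.05% of 2688 genes. That gene was eIF1, whose summit was 324 bp from its own TSS but 57 bp from a TSS of RpL28. Between 250 bp before and 50 bp after the eIF1 TSS there was no TATCGATA. The element counted for eIF1 may thus belong to the RpL28 promoter, which was not tested. The element was also common in promoters of unbound translation factor genes. Between 250 bp before and 50 bp after a TSS it was present at 7 of the 17 bound genes (41.2%) and 8 of the 35 unbound ones (22.9%), against 13.5% of all bound and 9.05% of all unbound protein-coding genes. A match is a description of the letters and does not show that a factor was there.

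In the same promoter windows CACGTG was present at 5 of the 52 translation factor genes (9.62%), against 5.34% of all protein-coding genes. The bound ones were eEF2, eIF2A and eIF4A, and the unbound ones eIF2gamma and eIF3f2, which had no pooled promoter summit. Of the 13 genes with a pooled summit only, none had CACGTG within 100 bp of it, against 4.87% of all such genes. Among those 13, CACGCG was found at eEF1beta and eIF4G2, against 6.92% of all such genes, and TATCGATA at eIF5, against 3.57%.

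**Figure D4:**
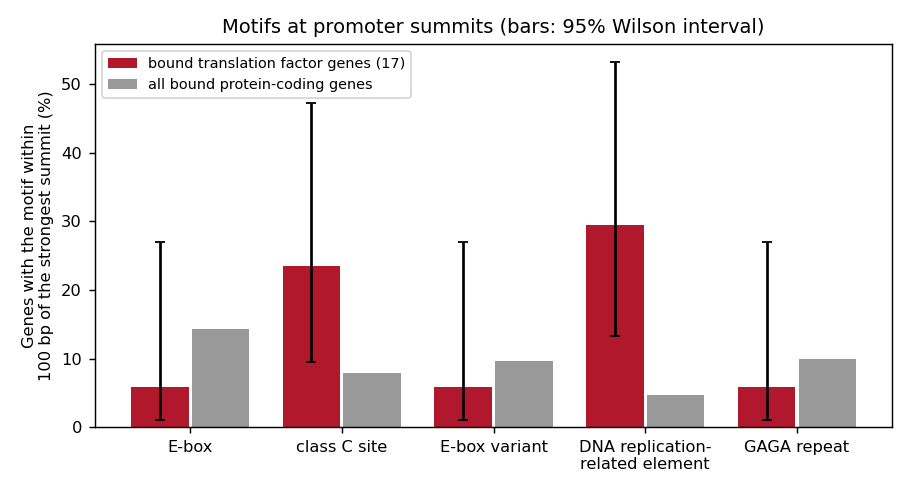
Share of bound genes (percent, with 95% Wilson intervals for the translation factor genes) with each motif within 100 bp of the strongest promoter summit, for the 17 bound translation factor genes and all 3535 bound genes. The DNA replication-related element was at 29.4% of the bound translation factor genes and 4.75% of all bound genes, and the E-box at 5.88% and 14.3%. For the E-box the all-gene share lay inside the interval. Within 200 bp, not drawn, the E-box was at 5 of the 17 genes and 18.5% of all bound genes.

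The strength of the bound summits was spread over the whole list. The median rank was 3493, ranging from 21 at eIF2Bbeta to 7034 at eIF4H1, against a median of 2809 over all bound genes (interquartile range 1273 to 4797). In the strongest 3683 regions, 9 translation factor genes were bound, which is 30% of the 30 with a pooled summit, against 30.5% of all such genes. Just inside the threshold of the optimal list stood eIF4E1 at rank 6402 and eIF4H1 at rank 7034, and just outside it eIF3m at 8160 and eIF2Bepsilon at 8270. GC content around the summit had a median of 43.8%, from 21.9% to 57.2%, against 37.3% over all bound genes.

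**Figure D5:**
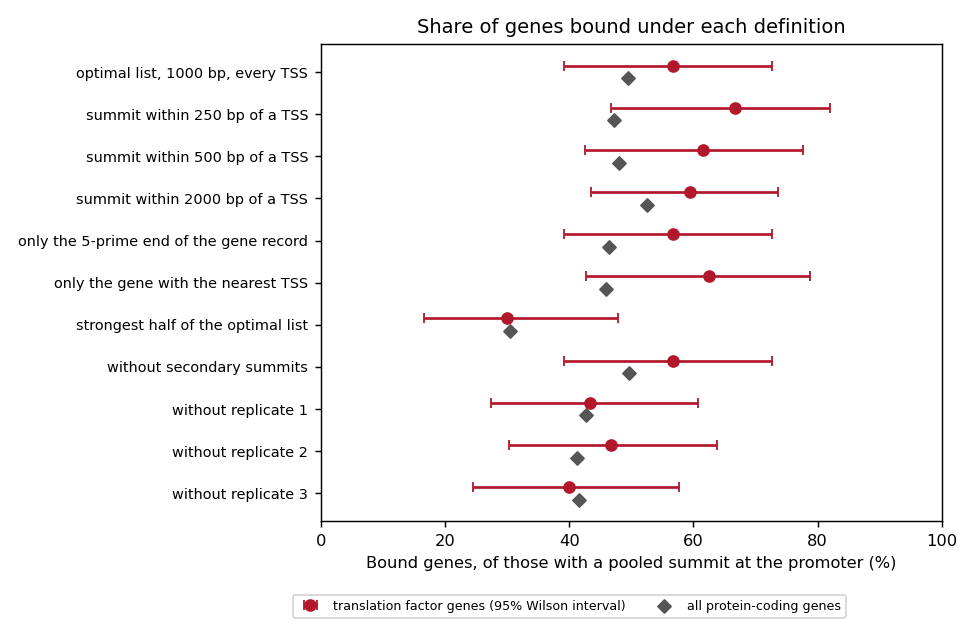
Share of genes bound (percent of those with a pooled promoter summit) under each definition of a bound gene, for the translation factor genes with 95% Wilson intervals and for all protein-coding genes; without a replicate, only regions held by both others are kept. The all-gene share lies inside the interval in every case, with 56.7% against 49.4% as first defined and 30% against 30.5% for the strongest 3683 regions.

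Other genes of translation and its control were taken from a list of 33 symbols, of which 28 matched a single gene. Of the 19 with a pooled promoter summit, 10 were bound (52.6%, interval 31.7 to 72.7%), again near the 49.4% of all genes. The strongest was Lk6, the kinase that phosphorylates eIF4E, at rank 57, with replicate ranks of 52, 63 and 67 (mean 60.7 ± 7.77, SD, n = 3). Its summit was 979 bp upstream of the TSS, near the limit of the rule. pAbp, the poly(A)-binding protein, ranked 461 with a CACGTG within 100 bp. Thor, the eIF4E-binding protein that holds back cap-dependent translation, ranked 1092, with replicate ranks of 1149, 885 and 1321 and a summit 2 bp from its TSS. Paip2 ranked 2349 with a summit 826 bp downstream of its TSS, and crc, the fly ATF4 whose translation responds to eIF2 phosphorylation, ranked 2944 with a CACGTG.

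The termination and rescue genes eRF1, eRF3 and pelo were bound at ranks 1989, 3193 and 3656, the helicase bel at 3538 and the kinase S6k at 4780. None of the 7 mitochondrial translation factors matched was bound, and 5 of them had no pooled promoter summit. Of all protein-coding genes, 25.3% were bound and 51.3% had a pooled promoter summit. With only 7 genes, a difference from those shares cannot be read, and it was not tested.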

How the data were processed

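Per the labels, the 3 libraries were separate biological replicates of 1 group. The deposited lists hold a signal value per region, a score of unstated scale and origin, used only to rank regions within a list. Per the deposited files, regions were listed for each replicate and for the pooled reads, then passed through IDR. The pooled list is labelled as peaks and background. The sources used here name no caller, aligner or IDR threshold. dm3 lists were not used.

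Members, gene lists, motifs and definitions were chosen with earlier results of these data known. Shares that fall outside an interval are therefore descriptions and do not set the translation factor genes apart. Genes came from the Ensembl release 115 annotation, and RefSeq coordinates were equal for 52 of 52 members. A replicate held a summit that lay inside 1 of its strongest 7366 regions. Every bound gene is named with its rank, the 12 of highest and 3 of lowest signal with full values, and every gene with a pooled summit only with its pooled rank. Shares carry 95% Wilson intervals. No test was run, since there is 1 group. Sequences came from the dm6 reference. Python 3.11.15, numpy 2.4.6, pandas 2.3.3 and scipy 1.17.1 were used, and the steps were tested on simulated data. Alternatives were other distances, windows, motifs, list sizes and the omission of each replicate.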

Additional observations from a re-analysis of the deposited data

How the results depend on the processing

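The translation factor share exceeded the all-gene share by 7.22 percentage points. The difference was 19.5 points with summits within 250 bp and 16.6 points with only the gene of the nearest TSS. It was -0.466 points with the strongest 3683 regions, and between -1.53 and 5.35 points when only regions held by both other replicates were kept, the lowest without replicate 3. The cause was not tested. The strongest 3683 regions of the optimal list left 9 bound genes in place of 17. Separately, a shorter cut of each replicate list left 7 summits held by all replicates in place of 11. Both follow from fewer regions. Omitting a replicate left 12 to 14 bound genes. Dropping genes whose summit was nearer another gene, an alternative chosen after seeing the data, left 14. CACGTG was counted at 5 genes within 200 bp and CACGTG or CACGCG at 4 within 100 bp, in place of 1. The lost genes were mostly of low rank: without replicate 1 eIF2A, eIF2D, eIF4H1 and eIF5B, without replicate 2 eIF4E1, eIF4H1 and eIF5B, and without replicate 3 eEF1alpha1, eIF2A, eIF2D, eIF4E1 and eIF4H1. Omission only filters the pooled list and is not a new call. Within 2000 bp, eEF1alpha2, eIF2Bgamma, eIF2alpha, eIF3d1 and eIF3g1 were gained. In 820 of 849 pairs of optimal summits within 400 bp the weaker lay at the higher coordinate, including the pairs at eIF4A, eIF3h and eIF1, so second summits may not be separate sites.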

Other observations

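Away from promoters, 13 optimal summits lay inside 3 translation factor genes, all in introns and all with another gene's TSS nearest. The same count was not made over all protein-coding genes and gene length was not considered. These counts therefore do not set the translation factor genes apart. eIF5B held 4, the strongest at rank 1266 with replicate ranks of 1465, 1363 and 1193, and sty, an inhibitor of receptor tyrosine kinase signalling, had the nearest TSS. eIF4EHP held 7, at ranks 2711 to 6380, with Syx1A nearest to all but 1. eIF1A, whose promoter was unbound, held 2, and the stronger, at rank 2161, ranked 2152, 3073 and 2056 in the replicates and had a CACGTG within 100 bp. The nearest TSS to both was that of CG7142.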
